A study of Arabidopsis thaliana with 10 samples.

Results

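The genes described here are the 6 plastid-encoded genes of the chloroplast ATP synthase, atpI, atpH, atpF, atpA, atpB and atpE. They were chosen as the probe sets that matched 1 gene with a plastid locus tag of this family. The table held 69 such plastid genes among 22810 probe sets, so 63 other plastid genes served for comparison. All 6 members had signals above percentile 40 of the array on all 10 arrays, and all 6 were tested.

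The study asked which genes act downstream of AtGLK1, a transcription factor that promotes chloroplast development, using whole Arabidopsis thaliana seedlings on Affymetrix ATH1 arrays. There were 5 groups of 2 arrays. DMSO controls were taken at 0 h, 4 h and 24 h, and seedlings given dexamethasone at 4 h and 24 h. DMSO is the solvent, and dexamethasone is a steroid often used to switch on inducible transgenes. Every group had the Col-0 background, carried transposon knock-outs of both Atglk1 and Atglk2, and was kept under hygromycin B. The array titles call the dexamethasone groups induced. The labels name no transgene, so whether seedlings carried an added, inducible GLK copy is not stated there. No probe set was annotated as GLK1 or GLK2, so the target genes were not checked by name. Each sample pooled the seedlings of a flask. Whether replicate arrays represent separate cultures is not given, so the p-values rest on a spread that may be purely technical.

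The chloroplast ATP synthase uses the proton gradient built by photosynthetic electron transport to make ATP. Its membrane part holds the proton path. There atpI encodes the subunit that forms the proton half-channels, atpH the subunit of the rotating ring, and atpF a subunit of the peripheral stalk. Its head in the stroma makes ATP: atpA encodes the alpha subunit, atpB the catalytic beta subunit and atpE the epsilon subunit, which sits on the central stalk and regulates activity. The remaining subunits, gamma, delta and the second stalk subunit, are encoded in the nucleus. In the RefSeq annotation of assembly TAIR10.1, atpI, atpH, atpF and atpA are consecutive genes, with rps2 and the rpo genes beyond atpI. The atpB and atpE genes overlap each other and lie between rbcL and ndhC. These 2 stretches are called the atpI-H-F-A unit and the atpB-E unit below, since genes of each are known to be transcribed together in chloroplasts.

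The 2% trimmed mean of the signals lay between 98.8 and 99.1 on every array, and array medians lay between 33.9 and 35.9. Replicates had r of 0.970 to 0.987 over all probe sets. On the second axis of variation (23.4% of the variance) 2 arrays stood apart, control 24 h replicate 1 and dexamethasone 4 h replicate 2. On those 2 arrays the summed signal of 4 measured defence transcripts was 6104 and 9008, against 465 to 1062 on the other 8. AT4G12490 and AT4G12500 made up most of it, while PDF1.2 had 208 and 361 there, within or below the 244 to 482 of the others. The part of this in the results was not tested, and values without both arrays are given below. Log2 changes below are on the log2(signal + 4.35) scale, which understates the change of weak probe sets, and a gene passed where its limma adjusted p was under 0.05.

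Among the genes of the membrane part, atpI (ArthCp010) had signals of 25.2 and 37.3 in the 0 h control. They were 87.8 and 77.8 in the 4 h control, and 58.0 and 40.3 in the 24 h control. With dexamethasone its signals were 66.6 and 77.7 at 4 h and 68.6 and 76.8 at 24 h. The 0 h arrays were thus the lowest, and the 24 h control lay between them and all 6 other arrays. Group means followed the order 0 h control, 24 h control, dexamethasone 4 h, dexamethasone 24 h and 4 h control, and of the neighbours in that order only the 2 dexamethasone groups overlapped. The weakest signal, 25.2, lay at percentile 43.7 of its array, so the level of atpI at 0 h was near the weak end of what was tested.

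The ring subunit gene atpH (ArthCp009) had signals of 339 and 969 in the 0 h control, 1361 and 1034 in the 4 h control, and 932 and 776 in the 24 h control. With dexamethasone they were 971 and 917 at 4 h and 998 and 1183 at 24 h. Replicate 1 of the 0 h control stood far below the other 9 arrays, of which the lowest was 776. This array gave atpH the widest range of the 6 genes, with a highest signal 4.01 times the lowest. Group means followed the same order as for atpI, but only the neighbours dexamethasone 4 h and dexamethasone 24 h did not overlap.

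The stalk subunit gene atpF (ArthCp008) had signals of 861 and 1101 in the 0 h control, 1508 and 1602 in the 4 h control, and 1575 and 1255 in the 24 h control. With dexamethasone they were 1463 and 1696 at 4 h and 1590.2 and 1675 at 24 h. Both 0 h arrays lay below the other 8, and among those 8 each neighbouring pair of groups overlapped. It was the gene of the 6 whose highest group mean was dexamethasone at 24 h, 1633 ± 60.2 (SD, n = 2), rather than the 4 h control, 1555 ± 66.0 (SD, n = 2).

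In the head, the alpha subunit gene atpA (ArthCp007) had signals of 2313 and 2887 in the 0 h control, 3708 and 4888 in the 4 h control, and 3734 and 3002 in the 24 h control. With dexamethasone they were 3255 and 4162 at 4 h and 3691 and 3544 at 24 h. As for atpF, the 0 h arrays were the lowest 2 and the other groups overlapped with their neighbours.

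The catalytic subunit gene atpB (ArthCp029) had signals of 4168 and 5842 in the 0 h control, 6822 and 8843 in the 4 h control, and 6457 and 5848 in the 24 h control. With dexamethasone they were 5599 and 6521 at 4 h and 6326 and 6596 at 24 h. Both 4 h control arrays were above all 8 others. The 0 h control overlapped with dexamethasone at 4 h, the next group in order, and the groups between it and the 4 h control overlapped as well.

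The epsilon subunit gene atpE (ArthCp028) had signals of 4499.7 and 5019.8 in the 0 h control, 6456 and 7411 in the 4 h control, and 6093 and 4958 in the 24 h control. With dexamethasone they were 5604 and 6047 at 4 h and 5698 and 6304 at 24 h. Both 4 h control arrays were again the highest 2. Its highest signal was 1.65 times its lowest, the narrowest range of the 6 genes. Replicate 1 of the 0 h control was the lowest of the 10 arrays for each of the 6 genes.

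**Figure D1:**
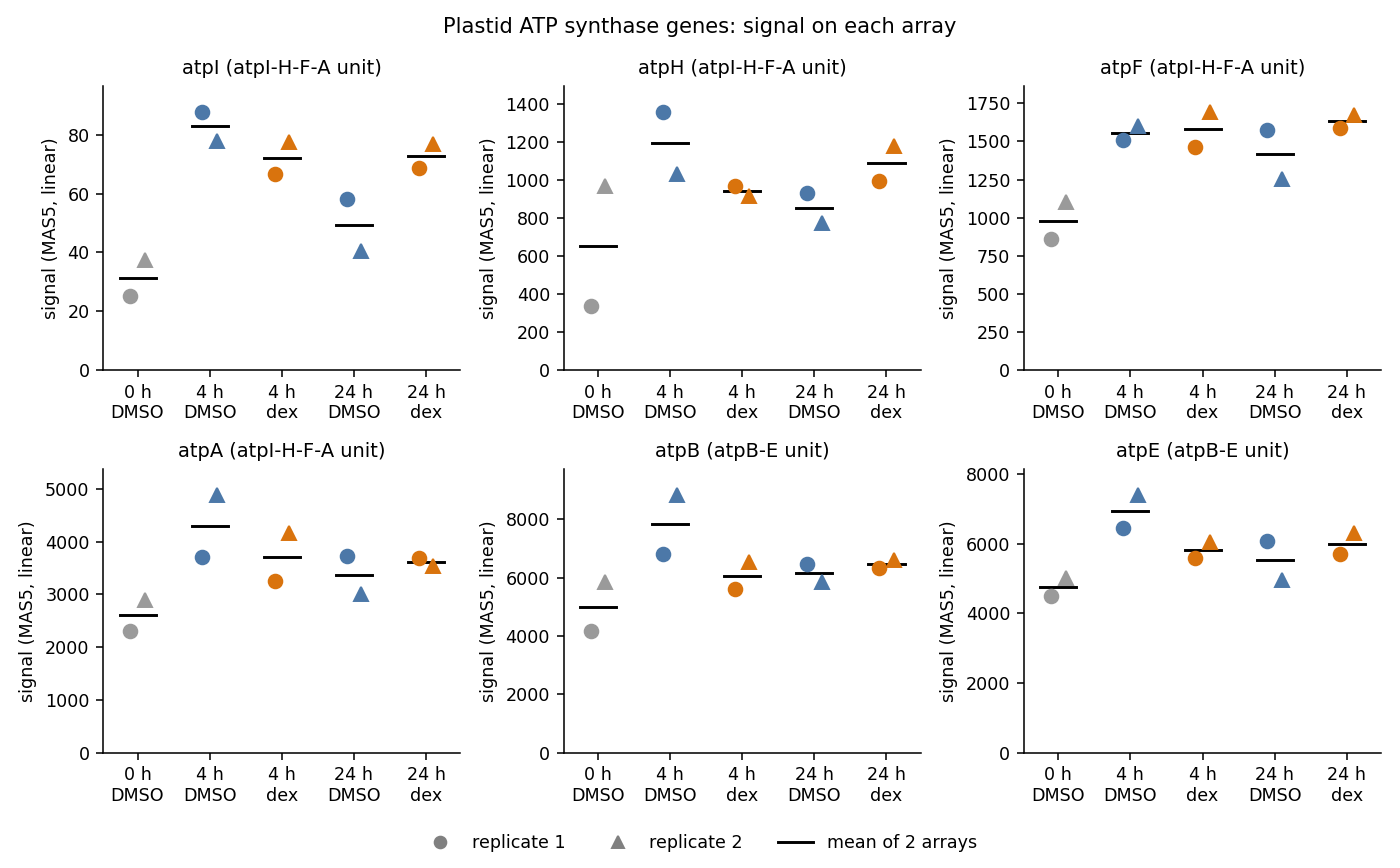
Signal (MAS5, linear scale from 0) of each of the 6 genes on each of the 10 arrays, by time and treatment (grey, 0 h DMSO; blue, DMSO; orange, dexamethasone); circles are replicate 1, triangles replicate 2 and lines the mean of 2 arrays. The 0 h control had the lowest mean for all 6 genes, and its replicate 1 was the lowest array for each of them, down to 339 for atpH against 776 or more on the other 9 arrays.

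The first comparison set the 4 h control against the 0 h control, and all 6 genes were higher at 4 h with no overlap of arrays. Of them atpI, atpF and atpE passed, and atpA, atpB and atpH did not. Among all 14575 probe sets tested, 2.63% passed in either direction and 1.1% passed as higher. A log2 change above 0 was found for 49.3%, and 21.9% were higher without overlap. The proton channel gene atpI went from 31.2 ± 8.53 to 82.8 ± 7.12 signal units (SD, n = 2 each), which was 1.31 on the log2 scale (SE 0.21, limma adjusted p = 0.00607). The stalk gene atpF changed by 0.67 (SE 0.14, limma adjusted p = 0.0320) and the epsilon subunit gene atpE by 0.54 (SE 0.13, limma adjusted p = 0.0490).

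The remaining genes had log2 changes of similar size but missed the threshold. In the head, the values were 0.72 for atpA (SE 0.17, limma adjusted p = 0.0534) and 0.65 for atpB (SE 0.17, limma adjusted p = 0.0706). The ring gene atpH had 1.04, larger than atpF, but its SE was 0.35 and its limma adjusted p 0.190. Its replicates at 0 h were far apart, and leaving out the higher of them, replicate 2, put the change of atpH at 1.79 and passed (limma adjusted p = 0.00206). When the low array was left out instead, it was 0.29.

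The count of 3 rested on single arrays. It was 0 without replicate 1 of the 0 h control and 0 without replicate 1 of the 4 h control, where atpI had log2 changes of 1.06 (limma adjusted p = 0.0680) and 1.23 (limma adjusted p = 0.0804). It was 1 without replicate 2 of the 4 h control, without replicate 1 of dexamethasone at 24 h or without replicate 2 of that group, and the gene left was atpI. Without both arrays that stood apart, 5 of 6 passed, all but atpH. Quantile normalization left the log2 change of atpE at 0.23 (limma adjusted p = 0.301), and atpA passed in its place. The time of day and the time since the solvent was added cannot be told apart here.

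Other plastid genes moved the same way between these groups. Of the 61 others tested, 59 had a log2 change above 0 and 8 rose, with a median of 0.46, against 0.70 for the 6 ATP synthase genes and -0.00 for all probe sets tested. Ranked from the highest change among the 67 plastid genes tested, atpI was at rank 2 and atpH at rank 6. The other 4 were nearer the middle, with atpA at 16, atpF at 20, atpB at 25 and atpE at 30. The other plastid genes that rose were rps15, rps16, rpl16, rpl22 and rpl33 of the plastid ribosome, the photosystem II gene psbH, the cytochrome assembly gene ccsA and the photosystem I assembly gene ycf3. No psa, pet, ndh or rpo gene passed. In whole seedlings, fewer cells of a type and less RNA per cell cannot be told apart.

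Relative to the median of the other 61 plastid genes on the same array, a measure added after the data were seen, atpI was at -0.53 ± 0.18 in the 0 h control and 0.31 ± 0.14 in the 4 h control (log2, SD, n = 2). The same measure for atpE was 0.03 ± 0.05 and 0.10 ± 0.12, and its arrays overlapped. For atpB it was -0.03 ± 0.18 and 0.15 ± 0.24, for atpF -0.23 ± 0.08 and -0.02 ± 0.04, and for atpA -0.12 ± 0.06 and 0.13 ± 0.26. It was -0.35 ± 0.90 and 0.23 ± 0.30 for atpH. The 0 h and 4 h arrays did not overlap on this measure for atpI, atpF and atpA, and they overlapped for atpH, atpB and atpE. For atpA the gap was only from -0.07 on replicate 2 of the 0 h control to -0.05 on replicate 1 of the 4 h control. How often other genes were without overlap on this measure was not counted. The split between the members therefore has no baseline, and no conclusion is drawn from it.

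Markers of cell types were measured in the same groups. Of 10 listed genes of green tissue, 3 were measured, LHCB4.1, LHCB4.2 and LHCB4.3, all for a light-harvesting protein of photosystem II. Their summed signal was 4269 to 4832 in the 0 h control and 3637 to 4039 in the 4 h control. LHCB4.2 fell (log2 change -0.84, limma adjusted p = 0.0115). LHCB4.3 had 0.44 with no overlap of arrays and LHCB4.1 had -0.03, and neither passed (limma adjusted p = 0.325 and 0.962). The 1 root hair gene measured of 5 root markers, EXPA7, had signals of 46.4 to 57.2 at 0 h and 32.1 to 37.8 at 4 h, a log2 change of -0.51 that did not pass. The 1 guard cell marker measured of 2, FMA, ranged from 32.7 to 43.3 at 0 h and from 38.1 to 39.98 at 4 h. None of these markers was at 0 on any array, and their part in the results was not tested.

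**Figure D2:**
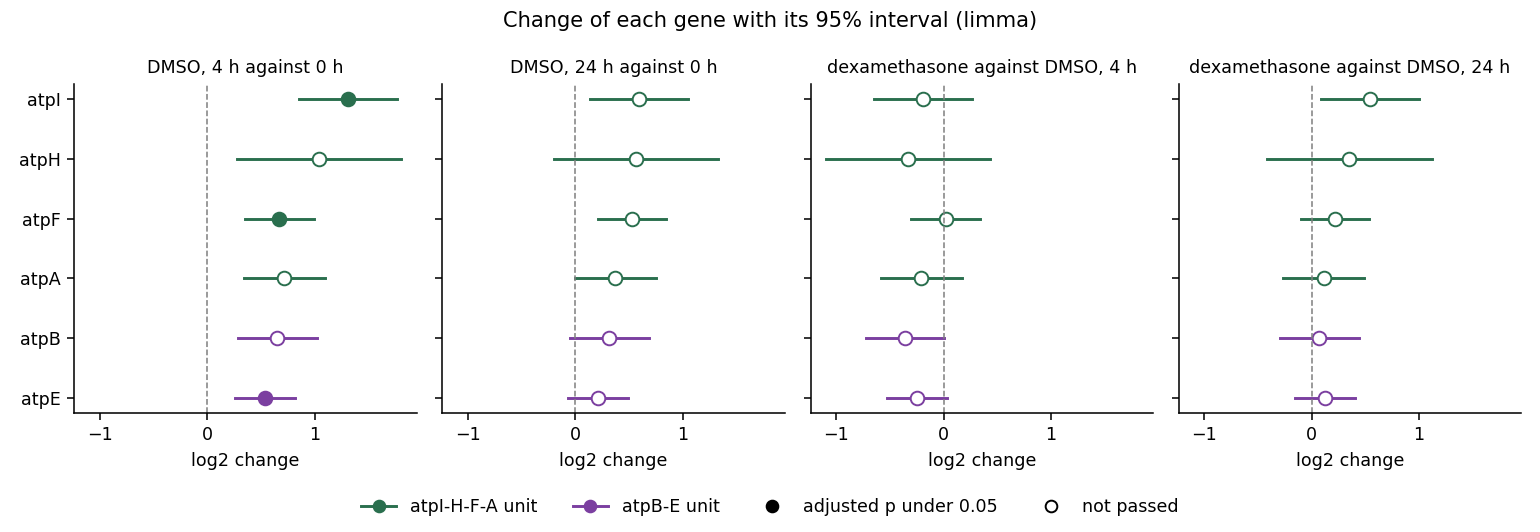
Log2 change of each gene with its 95% interval from limma in 4 comparisons; filled points passed (adjusted p under 0.05), green is the atpI-H-F-A unit and purple the atpB-E unit. The filled points are atpI, atpF and atpE in the 4 h control against the 0 h control, and all 24 h dexamethasone points lie above 0, with most intervals crossing it.

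In the 24 h control against the 0 h control, no gene of the 6 passed, and 0 of 14575 probe sets passed (0%), with 662 at an unadjusted p under 0.05. The log2 changes were all above 0, as for 50.2% of all probe sets, from 0.21 for atpE to 0.59 for atpI, each with a limma adjusted p of 0.971. The intervals of atpI and atpF lay above 0, from 0.13 to 1.05 and from 0.21 to 0.85. Arrays did not overlap for atpI, atpF, atpA and atpB, and 16.1% of all probe sets were higher without overlap. For atpB the gap was only from 5842 at 0 h to 5848 at 24 h. Without replicate 1 of the 0 h control the change of atpH was -0.19 instead of 0.56. The other plastid genes had a median of 0.23, with 51 of 61 above 0.

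At 4 h of dexamethasone, none of the 6 genes passed against the 4 h control. Of all probe sets 0.00686% passed, which was 1, and 1022 had an unadjusted p under 0.05, none of them a member. The log2 change was below 0 for 5 genes and above 0 for 1, against 47.8% of all probe sets above 0, and the atpB-E unit had the most negative values relative to their errors. The catalytic subunit gene atpB had -0.36 (SE 0.17, limma adjusted p = 0.707), with a 95% interval from -0.73 to 0.00, and atpE had -0.25 (SE 0.13, limma adjusted p = 0.712). The genes of the membrane part had -0.19 for atpI, -0.33 for atpH and 0.02 for atpF, and atpA had -0.21. Both dexamethasone arrays lay below both control arrays for atpI, atpH, atpB and atpE, and 18.4% of all probe sets were lower without overlap. For atpI the gap was only from 77.65 with dexamethasone to 77.76 in the control. Without both arrays that stood apart, the log2 changes ran from -0.47 for atpB to -0.09 for atpF, and again none passed. The summed signal of the 3 green tissue markers was 4626 to 5058 with dexamethasone, above the 3637 to 4039 of the control, while 5 of the 6 genes had values below 0. LHCB4.2 had the largest log2 change of the 3, 0.74, with mean signals of 862 in the control and 1453 with dexamethasone. LHCB4.3 had 0.37 and LHCB4.1 had 0.18. None of the 3 markers passed (limma adjusted p from 0.396 to 0.785). Whether these 3 reflect the amount of green tissue or respond to the treatment themselves was not tested, here or at 24 h. EXPA7 had 33.9 to 42.3 against 32.1 to 37.8, FMA had 35.3 to 46.7 against 38.1 to 39.98, and the part of these markers was not tested.

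At this time the 61 other plastid genes had a median log2 change of -0.10, with 21 above 0, and the 6 members had a median of -0.23. Of the 67 plastid genes, atpB ranked 66 from the highest, atpH 64, atpE 58, atpA 50, atpI 44 and atpF 18. The gene beside atpB, rbcL for the large subunit of Rubisco, had a log2 change of 0.26, which did not pass either. Its signals were 399 and 418 in the 4 h control and 478 and 505 with dexamethasone, so the neighbours atpB and rbcL lay on opposite sides of 0. The difference between them was not tested.

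At 24 h of dexamethasone, none of the 6 genes passed against the 24 h control, where again 0.00686% of all probe sets passed and 451 had an unadjusted p under 0.05. The log2 change of atpI was 0.54 (SE 0.21, limma adjusted p = 0.999), with a 95% interval from 0.09 to 1.00, and it was the 1 member with an unadjusted p under 0.05. The other genes of the membrane part had 0.35 for atpH and 0.21 for atpF. The head genes had 0.11 for atpA, 0.07 for atpB and 0.12 for atpE. Arrays did not overlap for atpI, atpH and atpF, against 18% of all probe sets that were higher without overlap. They overlapped for atpA, atpB and atpE.

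Nearly all plastid genes had a positive value in this comparison. Of the 61 others, 57 had a log2 change above 0 with a median of 0.19, close to the median of 0.17 for the 6 members, and 52.5% of all probe sets were above 0. The rank of atpI among the 67 was 2, and the ranks of the others were 18 for atpH, 29 for atpF, 46 for atpE, 50 for atpA and 58 for atpB. All 6 genes were lower in replicate 2 of the 24 h control than in replicate 1, which stood apart. Without replicate 1 the change of atpI was 0.78, and without replicate 2 it was 0.30. Without replicate 2, the change of atpA was -0.05 and that of atpE was -0.02. The summed signal of the 3 green tissue markers was 6474 to 6706 with dexamethasone and 4743 to 5789 in the control, on the same side as the 6 genes. Their log2 changes were 0.43 for LHCB4.2, 0.27 for LHCB4.1 and 0.13 for LHCB4.3, and none of the 3 passed. EXPA7 had 44.8 to 45.3 against 32.3 to 52.7 and FMA 36.0 to 39.7 against 45.0 to 50.3. The part of these markers was not tested.

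**Figure D3:**
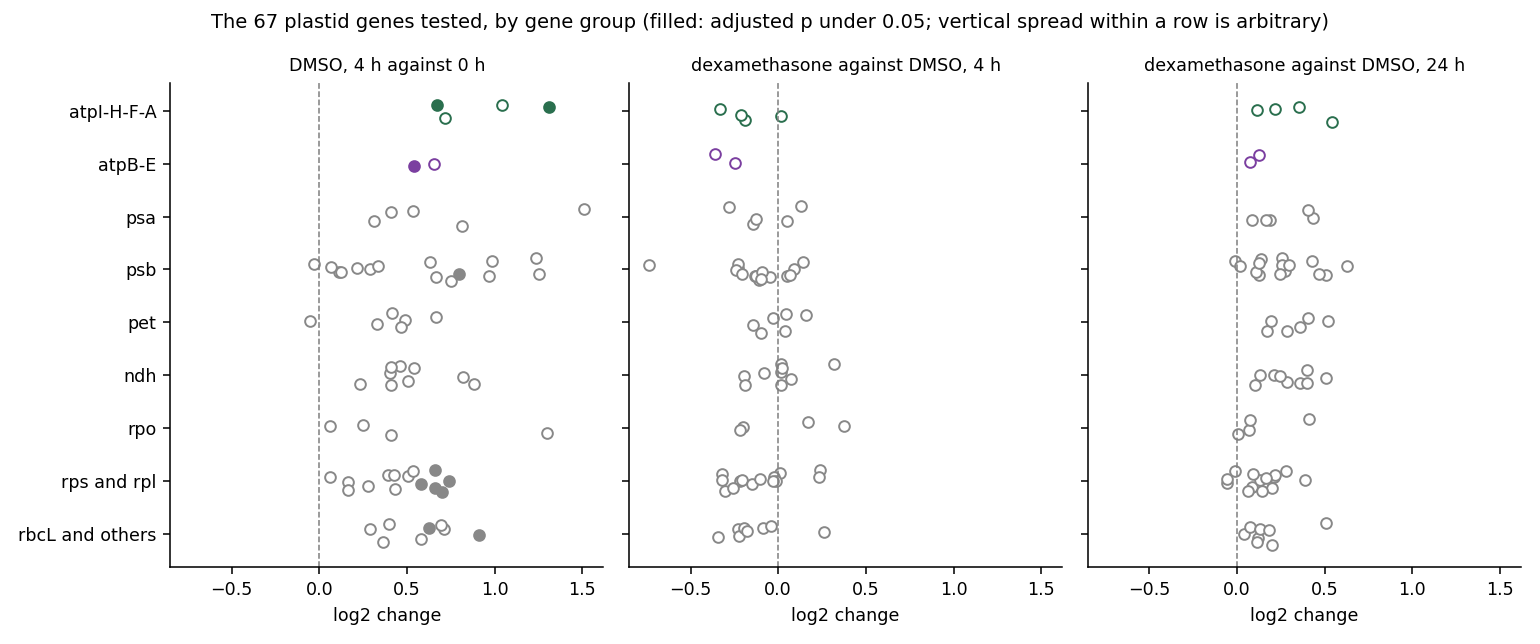
Log2 change of the 67 plastid genes tested, in rows by gene group, for the 4 h control against 0 h and for dexamethasone against DMSO at 4 h and 24 h; each point is 1 gene and filled points passed. In the first panel 59 of 61 other plastid genes and all 6 ATP synthase genes lie above 0, and in the last panel 57 of 61 and all 6 do.

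Averaged over both times, the dexamethasone effect ranged from -0.14 for atpB to 0.18 for atpI on the log2 scale, with limma adjusted p of 0.999 or above. None of the 6 passed, none had an unadjusted p under 0.05, and 0.0137% of all probe sets passed. The effect at 24 h minus the effect at 4 h was above 0 for all 6 genes, from 0.20 for atpF to 0.73 for atpI (limma adjusted p from 0.832 to 0.894). It was above 0 for 57 of 61 other plastid genes and for 53% of all probe sets. No probe set passed in that test (0%), with 799 at an unadjusted p under 0.05, among them atpI.

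Comparing both 24 h groups with both 4 h groups, treatment included as a term, all 6 genes had log2 changes below 0. They ran from -0.05 for atpF to -0.35 for atpI, while 52.8% of all probe sets were above 0. None passed (limma adjusted p from 0.269 to 0.832), while 7.06% of all probe sets did. In the controls alone, all 6 had lower mean signals at 24 h than at 4 h. With dexamethasone alone, only atpA did, with 3708 at 4 h and 3618 at 24 h. The means of the other genes were higher at 24 h, from 944 to 1090 for atpH and from 72.1 to 72.7 for atpI. No test was made within either treatment. In the comparison over both treatments, 2 of the 61 other plastid genes fell, rps2 and rps15. Beyond atpI on the map, the ribosomal protein gene rps2 had the same log2 change as atpI, -0.35, but with an SE of 0.09 against 0.17 (limma adjusted p = 0.0403). Its signals were 645 and 648 in the 4 h control and 423 and 538 in the 24 h control. The RNA polymerase genes further along had -0.47 for rpoC2, -0.33 for rpoC1 and -0.51 for rpoB and did not pass.

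The 2 units were compared through the mean log2 signal of atpI, atpH, atpF and atpA minus that of atpB and atpE on each array, centred on the mean of the 10 arrays. This difference was -0.48 and -0.13 in the 0 h control, 0.19 and -0.12 in the 4 h control, and 0.01 and -0.11 in the 24 h control. It was 0.16 and 0.17 with dexamethasone at 4 h, and 0.16 on both arrays at 24 h. The dexamethasone arrays were thus close together, while the control arrays were spread over a wider range. Both 24 h dexamethasone arrays were above both 24 h control arrays, and at 4 h the control arrays lay on either side of the dexamethasone pair.

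Between groups, the difference of the units changed by 0.34 from the 0 h to the 4 h control, by 0.25 from the 0 h to the 24 h control, by 0.13 with dexamethasone at 4 h and by 0.21 at 24 h. The pooled SD between replicates was 0.15. No test was made of this difference, because it is a score over chosen genes. Without replicate 1 of the 0 h control the first of these values was 0.17, and the second was 0.08. At 4 h of dexamethasone the value was -0.03 without replicate 2 of the 4 h control and 0.28 without replicate 1, so its sign rested on 1 array. From the 0 h to the 4 h control, atpF (0.67) and atpA (0.72) had log2 changes near those of atpB (0.65) and atpE (0.54). Those of atpI (1.31) and atpH (1.04) were larger. Signals of atpI lay at percentiles 43.7 to 70.7 of their arrays, and those of atpB and atpE at 99.9 or above. The part of signal level in the difference was not tested.

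**Figure D4:**
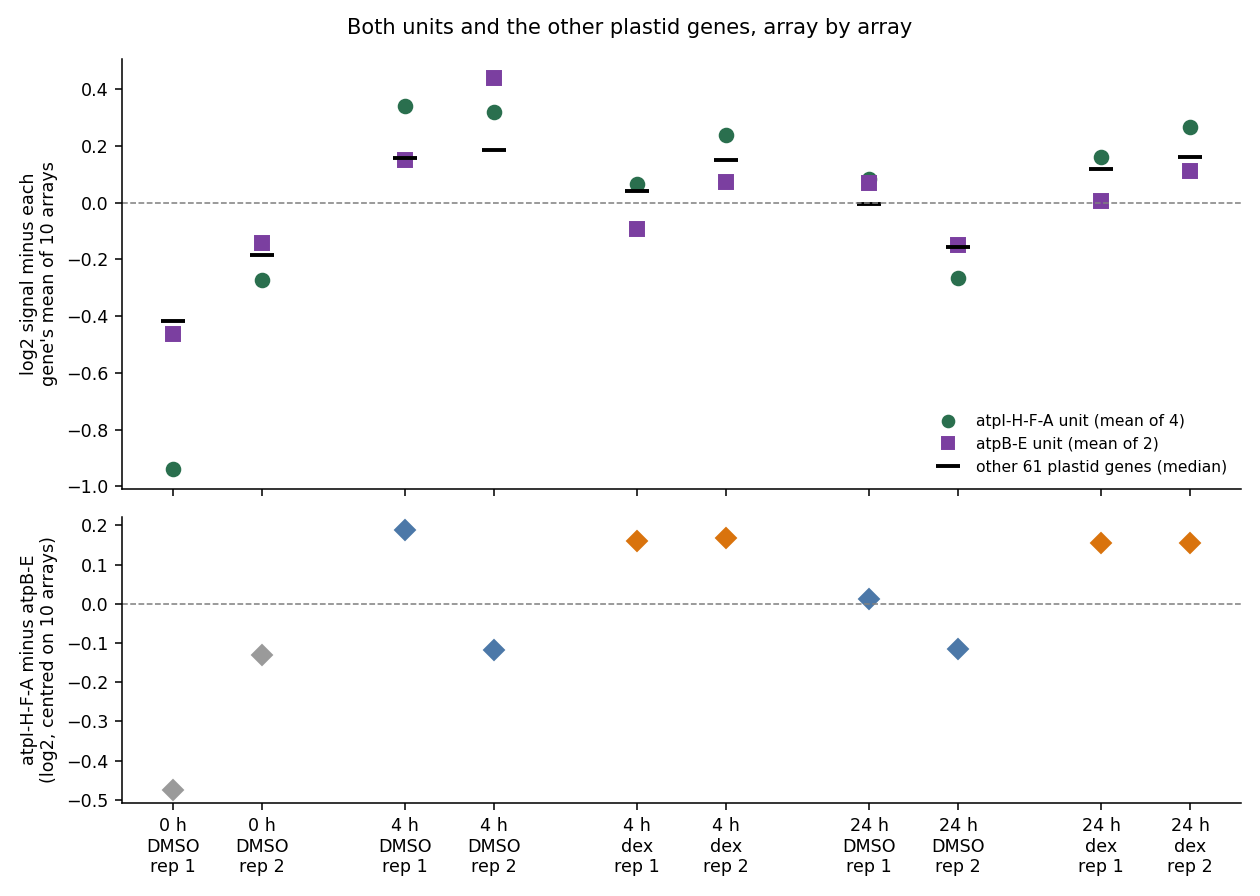
Upper panel, mean log2 signal of each unit and median of the 61 other plastid genes tested, each gene centred on its mean of 10 arrays; lower panel, atpI-H-F-A unit minus atpB-E unit, centred on the 10 arrays. Replicate 1 of the 0 h control is lowest in both panels, and the 4 dexamethasone arrays lie at 0.16 to 0.17 in the lower panel.

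The other plastid genes were also lowest at 0 h. The median of the 61 others, each centred on its own mean, was -0.42 and -0.19 in the 0 h control, 0.16 and 0.18 in the 4 h control, and -0.01 and -0.16 in the 24 h control. With dexamethasone it was 0.04 and 0.15 at 4 h and 0.12 and 0.16 at 24 h. Members lay on the other side of 0 from this median on some arrays. On replicate 1 of the 24 h control, where the median was -0.01, all but atpI did, from 0.05 for atpH to 0.16 for atpF. On replicate 1 of dexamethasone at 4 h, centred in the same way, atpA was at -0.08, atpB at -0.15 and atpE at -0.04. On replicate 2 of the 0 h control atpH was at 0.11, and on replicate 1 of dexamethasone at 24 h atpE was at -0.01. In the 0 h control all 6 genes were higher in replicate 2, with a median absolute difference between replicates of 0.42 (log2), against 0.18 for all probe sets. The same measure was 0.29 in the 4 h control and 0.31 in the 24 h control, against 0.17 and 0.18 for all probe sets. With dexamethasone it was 0.21 at 4 h and 0.11 at 24 h, against 0.20 and 0.14.

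Pairs of genes in the same unit were about as alike as pairs across the units. Over the 10 arrays, Pearson r was 0.70 to 0.94 with a median of 0.87 for the 7 pairs in 1 unit, and 0.73 to 0.94 with a median of 0.81 for the 8 pairs across units. Without replicate 1 of the 0 h control the ranges were 0.28 to 0.89 and 0.37 to 0.91. With group means removed they were 0.32 to 0.92 and 0.38 to 0.90. These values are descriptions over arrays, and genes on the same array share its RNA preparation and scaling.

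The genes most alike to each unit were sought among the 7892 single-gene probe sets tested outside the 6. For the atpI-H-F-A unit they were all plastid genes: psbH with r = 0.983, accD with 0.976, psbB with 0.972, psaA with 0.953 and cemA with 0.951 over 10 arrays. Without replicate 1 of the 0 h control these r were between 0.832 and 0.959. Of these, psaA and psbB encode core proteins of photosystems I and II, psbH a small subunit of photosystem II, accD a subunit of acetyl-CoA carboxylase and cemA a protein of the chloroplast envelope.

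For the atpB-E unit the most alike were cemA with r = 0.949 and ccsA with 0.933, followed by the nuclear genes AT5G20290, AT3G56760 and AT4G16720 with 0.920, 0.897 and 0.894. Among nuclear genes, AT3G56760 and AT2G32600 came closest to the atpI-H-F-A unit, with 0.921 and 0.914. AT3G16670, AT5G04550 and AT3G50590 followed with 0.891, 0.877 and 0.874. The nuclear list of the atpB-E unit went on with AT5G41060 and AT2G34480, with 0.862 and 0.859. Without replicate 1 of the 0 h control, r in the nuclear lists was between 0.651 (AT3G50590) and 0.898 (AT2G32600). With group means removed, r of AT3G16670 was 0.5003. AT3G56760 was the 1 gene in both nuclear lists.

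Of the 4 nuclear genes listed for the same enzyme, 2 were measured, and neither passed in any of the 7 comparisons. ATPC1, for the gamma subunit, had mean signals of 2832 ± 112 in the 0 h control, 3329 ± 315 in the 4 h control and 3191 ± 28.4 in the 24 h control (SD, n = 2 each). With dexamethasone it had 3095 ± 175 at 4 h and 3299 ± 141 at 24 h. Its log2 change from the 0 h to the 4 h control was 0.23 (limma adjusted p = 0.362), on the same side of 0 as the plastid genes. Both 4 h arrays lay above both 0 h arrays, as for 21.9% of all probe sets. ATPC2, a second gene for a gamma subunit, was weak, with signals from 23.4 to 37.3. Its log2 change from the 0 h to the 4 h control was on the other side of 0, at -0.07 (limma adjusted p = 0.931).

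Of 8 listed genes of the mitochondrial ATP synthase, which makes ATP in respiration, 2 were measured, AT5G47030 for the delta and AT1G51650 for the epsilon subunit, and neither passed in any comparison. Of 16 listed factors for expression or assembly of the plastid enzyme, 6 were measured. None of the 6 passed in the comparisons of dexamethasone or in the control time course, where AT3G22150 (AEF1), needed for processing of atpF RNA, had a log2 change of 0.57 from 0 h to 4 h (limma adjusted p = 0.212). Between 4 h and 24 h over both treatments 1 of the 6 passed, where 7.06% of all probe sets did. It was AT2G18940, which fell and is related to maize PPR10, which in maize binds RNA between atpI and atpH. Its mean signal was 103 ± 1.104 in the 4 h control and 115 ± 20.1 with dexamethasone at 4 h, and 70.6 ± 5.15 and 74.5 ± 2.52 at 24 h (SD, n = 2 each). The log2 change was -0.56 (SE 0.10, limma adjusted p = 0.00748).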

How the data were processed

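Whole seedlings were profiled on 10 ATH1 arrays, 2 in each of 5 groups. The authors used MAS5 and GCOS, per the submitters' processing notes, whose versions are not stated there. What they deposited is 1 linear intensity for each probe set and array. RNA was labelled by the One-Cycle method, per the labels' protocols. That method primes with oligo(dT), and plastid RNAs mostly lack stable poly(A) tails, so plastid signals reflect both level and priming. No detection calls come with the table. Precision is limited by the number of arrays.

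Probe sets were named through the platform annotation, updated with RefSeq (assembly TAIR10.1, used for names and gene order only); 13513 had 1 gene, 503 several and 8730 none. The 64 control probe sets were left out. Percentile 20 of all values, 4.35, was added before log2, and 14575 probe sets that exceeded percentile 40 of their array on 2 or more arrays were kept. Changes were tested two-sided with limma 3.58.1 in R 4.3.3 (lmFit, eBayes with a trend), with group means over 10 arrays and 5 residual degrees of freedom. An additive fit on the 8 arrays at 4 h and 24 h gave the mean dexamethasone effect and 24 h against 4 h. Benjamini-Hochberg adjustment covered all probe sets kept, with a threshold of 0.05. The fit was tested on simulated data.

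The members, gene lists and the rule for named genes were chosen with earlier results of these data known. The rule took the 6 members, the 5 single-gene and 5 nuclear probe sets with the highest r to each unit, map neighbours, plastid gene groups and listed loci. The LHCB4.2 marker and the plastid genes that passed were named after their values were seen. Comparisons of dexamethasone and of the time course share control arrays. Alternatives were other added constants (10 times smaller, or 16), no filter, quantile normalization, no trend, the replicate number as a block, each array left out, and both arrays that stood apart left out. Tables were made with Python 3.11.15 and pandas 2.3.3, and figures with matplotlib 3.10.9.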

Additional observations from a re-analysis of the deposited data

How the results depend on the processing

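In the 4 h against the 0 h control, 3 genes passed, but 1 without the filter, 1 without the trend (atpI both times), 5 without both arrays that stood apart, and 0 to 4 when 1 array was left out. With the replicate block 5 passed. Deviations of replicate 1 from the group mean had r of 0.11 between both 4 h groups and -0.03 between both 24 h groups. Over all pairs of groups r ran from -0.42 to 0.18. These values cannot settle whether replicate numbers pair the samples. In the other comparisons the count was 0 under every alternative run. The change of the unit difference at 4 h of dexamethasone ranged from -0.025 to 0.28 with 1 array left out. The 24 h minus 4 h value was 0.29 with quantile normalization, and -0.074 to 0.23 with 1 array left out, against 0.079. From 0 h to 4 h it was 0.60 with quantile normalization and 0.17 to 0.51 with 1 array left out, and from 0 h to 24 h 0.079 to 0.42. Some uncalled changes took both signs when 1 array was left out: atpF at 4 h of dexamethasone -0.088 to 0.13 (-0.088 without both arrays that stood apart), atpA and atpE at 24 h -0.046 to 0.27 and -0.024 to 0.27, atpH, atpA and atpE in the mean effect -0.11 to 0.16, -0.14 to 0.062 and -0.16 to 0.015, atpH from 0 h to 24 h -0.19 to 1.32, and atpH and atpF in 24 h against 4 h -0.25 to 0.0094 and -0.11 to 0.038. With quantile normalization atpB at 24 h of dexamethasone was -0.024 and atpE 0. The causes were not tested.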
